A study of Mus musculus with 26 samples.

Results

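The nuclear genes of oxidative phosphorylation were followed through 26 mouse poly(A) RNA libraries. They were taken by symbol from the authors' tables: names starting with Nduf plus a, b, c, s or v and a digit, with Cox4 to Cox8, with Uqcr or with Atp5, together with Sdha to Sdhd, Cyc1 and Cycs. Names of pseudogenes were dropped. This gave 82 genes of 18163 named in either table: 36 of complex I, 4 of complex II, 9 of complex III counting Cyc1, 15 of complex IV counting Ndufa4, 17 of complex V, and Cycs. All 82 were listed for T cells and 80 for MC38 cells. The same numbers passed the filter on low counts. Cox6b2 and Cox7a1 were missing from the MC38 list, and stood at or below 1.84 CPM (counts relative to a fixed library total, after TMM scaling) in T cells. The 13 genes of the mitochondrial genome were not analysed here.

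The study compared inhibitors of PRMT5, an arginine methyltransferase, in tumour cells and in T cells. The tumour cells were MC38/gp100, colon adenocarcinoma cells of the mouse with the melanoma antigen gp100. They were used with Mtap knocked out (KO) and as WT, and each was given GSK3326595, MRTX1719 or DMSO for 5 days. Mtap encodes the phosphorylase that clears methylthioadenosine (MTA), and MRTX1719 binds PRMT5 together with MTA, whereas GSK3326595 is a PRMT5 inhibitor that is not of this MTA-cooperative kind. The pmel-1 T cells were taken from mice transgenic for a receptor against gp100. They were labelled WT, were kept in IL-2 and had the same agents for 3 days. Each inhibitor was at 0.5 uM. The 9 groups had 3 libraries each, except for WT MC38 cells with MRTX1719, which had 2 (replicates 1 and 3). Whether the KO line is a single clone, and whether T cells of several mice were pooled, is not given in the sources used here. Replicates are not said to be of different cultures or mice, so p-values rest on the spread among libraries alone, and that may be technical.

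Oxidative phosphorylation passes electrons from NADH through complex I, and from succinate through complex II, to complexes III and IV, and complex V uses the resulting proton gradient to make ATP. Cytochrome c carries electrons between complexes III and IV. Complex II is built wholly from nuclear genes, while the others also hold subunits made in the mitochondrion, so their nuclear subunits have to be matched with those in assembly. T cells that divide after activation are known to enlarge this machinery, and PRMT5 is known to methylate proteins of the splicing and transcription apparatus.

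Many promoters of these genes are known to carry sites for the factors NRF1 and GABP, and 4 are shown for complex II and IV genes that gave some of the largest increases in T cells. The windows run from 250 bases before to 50 bases after the RefSeq start (GRCm38.p6, another build than the authors' GRCm39), on the minus strand and written 5′ to 3′ in the direction of transcription. Capitals mark matches on either strand to GCGCNTGCG (NRF1 type) or CCGGAAG (GABP type). The Sdhd window is chr9:50603800-50604099, the Sdha window chr13:74350191-74350490, the Cox8a window chr19:7217567-7217866 and the Cox7a2l window chr17:83514284-83514583.
Sdhd: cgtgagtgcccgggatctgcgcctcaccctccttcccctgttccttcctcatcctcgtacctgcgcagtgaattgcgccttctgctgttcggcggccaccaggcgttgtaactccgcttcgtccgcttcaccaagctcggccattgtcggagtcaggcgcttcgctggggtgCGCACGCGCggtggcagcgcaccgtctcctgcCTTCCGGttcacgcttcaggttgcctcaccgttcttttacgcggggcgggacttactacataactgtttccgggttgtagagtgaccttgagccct
Sdha: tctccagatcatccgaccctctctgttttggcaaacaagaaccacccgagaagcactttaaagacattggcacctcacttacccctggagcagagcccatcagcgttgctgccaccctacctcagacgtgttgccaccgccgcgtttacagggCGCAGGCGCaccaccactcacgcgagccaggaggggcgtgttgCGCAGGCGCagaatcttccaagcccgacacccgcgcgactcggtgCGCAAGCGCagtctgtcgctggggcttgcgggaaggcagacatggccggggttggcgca
Cox8a: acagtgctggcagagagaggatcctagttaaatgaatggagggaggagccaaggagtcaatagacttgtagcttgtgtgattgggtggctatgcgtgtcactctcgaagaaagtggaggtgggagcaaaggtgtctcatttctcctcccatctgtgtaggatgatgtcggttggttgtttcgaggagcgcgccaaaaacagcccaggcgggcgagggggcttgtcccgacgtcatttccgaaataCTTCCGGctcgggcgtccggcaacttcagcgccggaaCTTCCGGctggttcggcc
Cox7a2l: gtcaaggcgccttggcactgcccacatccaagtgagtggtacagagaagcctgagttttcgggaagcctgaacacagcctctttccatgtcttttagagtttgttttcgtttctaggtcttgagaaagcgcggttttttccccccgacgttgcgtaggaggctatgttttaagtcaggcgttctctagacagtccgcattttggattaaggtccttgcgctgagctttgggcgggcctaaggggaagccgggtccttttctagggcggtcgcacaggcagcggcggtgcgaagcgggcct
The Sdha window holds 3 NRF1-type matches, the Sdhd window 1 of each type, the Cox8a window 2 of the GABP type, and no match to either was found in the Cox7a2l window. Of 68 member genes with a window, 25 (36.8%) held GCGCNTGCG, against 7.12% of 27025 genes of any kind, and 17 held CCGGAAG, against 9.93% of genes. The stricter GCGCATGCG, whose matches are all among those of the free-base form, was in 13.2% of members and 1.95% of genes. AAGATGGCG (YY1 type) was in 10.3% against 1.64%, and GGGGCGGGG (SP1 type) in 16.2% against 12.9%. These are matches of letters in a window, and no relation to the expression changes was tested.

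An MC38 library held 19302768 to 27786226 counts and a T cell library 13813406 to 20772699. Mtap RNA stood at 271 ± 6.31 CPM in KO cells with DMSO and 393 ± 4.61 CPM in WT cells with DMSO (SD, n = 3 each), so transcripts of the targeted gene were still counted in the KO line. All 10 T cell markers reached 1 CPM in the T cells. Of 7 carcinoma markers, 1 did so in MC38 cells, and Epcam was at 0 counts in most of those groups. Another list, of 6 genes of fibroblasts and endothelium, summed in MC38 to 2761 to 2793 CPM in KO cells with MRTX1719, 3950 to 4004 CPM in KO cells with GSK3326595, 6282 to 6642 CPM in KO cells with DMSO and 1927 to 2193 CPM in the WT groups. Their part in any result was not tested. In bulk RNA, fewer cells of a type and less RNA per cell cannot be told apart.

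In T cells the 82 genes together took 1.13% ± 0.0127 of all counts with GSK3326595, 1.20% ± 0.0239 with MRTX1719 and 1.03% ± 0.00411 with DMSO (SD, n = 3 each). The ranges of the 3 groups did not overlap. In KO cells the share was 0.781% ± 0.0136 with GSK3326595, 0.820% ± 0.0112 with MRTX1719 and 0.793% ± 0.00626 with DMSO (SD, n = 3 each), and the ranges with GSK3326595 and DMSO overlapped. In WT cells it was 0.790% ± 0.00703 with GSK3326595 and 0.750% ± 0.00536 with DMSO (SD, n = 3 each), while both MRTX1719 libraries stood at 0.744%. Complex V held the largest part of it in T cells with MRTX1719, at 0.434% of all counts, against 0.362% with DMSO.

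**Figure D1:**
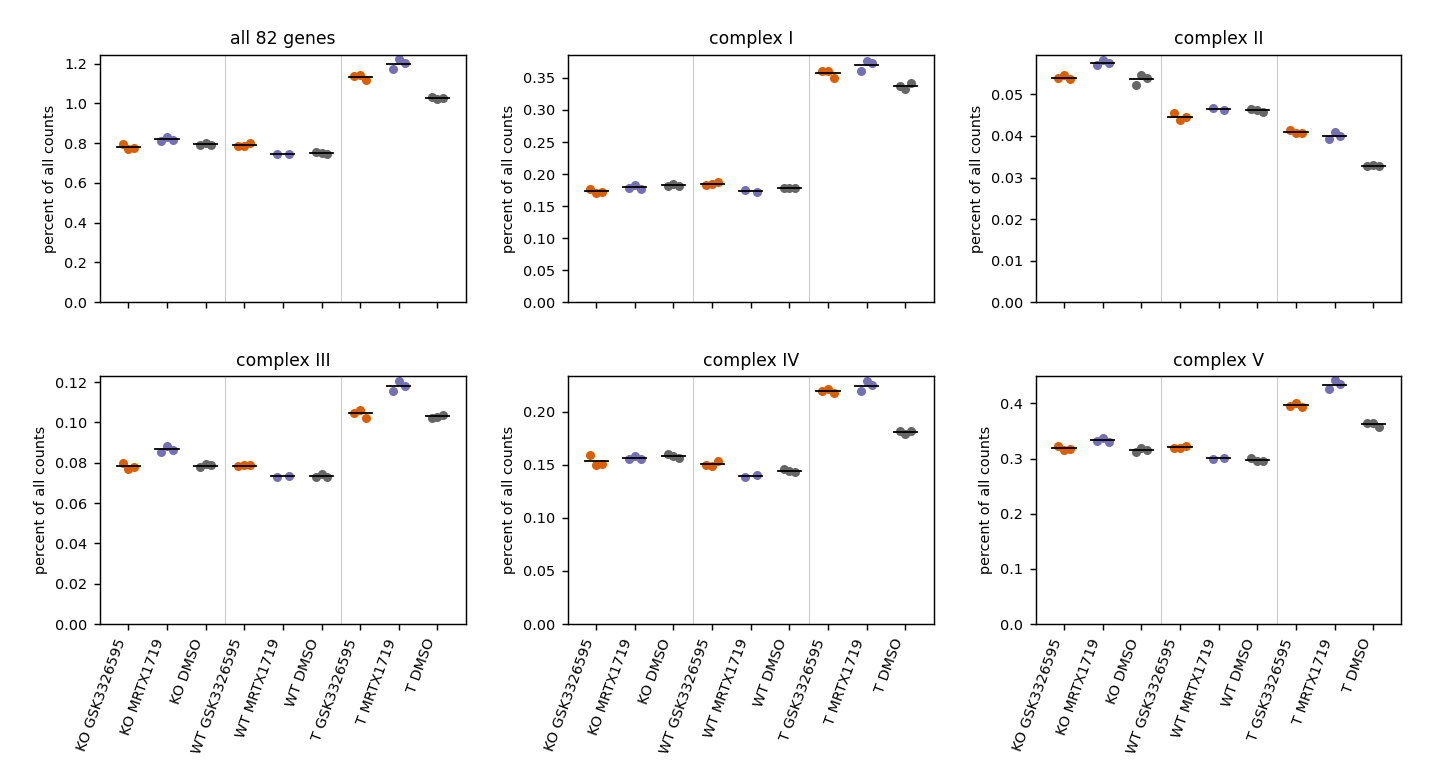
Share of all counts, in percent on a linear axis from 0, taken by all 82 genes and by each complex in the 9 groups; points are libraries and bars are group means. The T cell libraries with either inhibitor lie above those with DMSO for all 82 genes (means of 1.13% and 1.20%, against 1.03%), while the MC38 means stay between 0.744% and 0.820%.

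Levels per length put parts of ATP synthase and a few subunits of complexes III and IV at the top. In T cells with DMSO, Atp5e, the epsilon subunit of complex V, stood highest at 718 ± 32.8 CPM per kb of transcript (SD, n = 3), followed by Atp5d, the delta subunit, at 550 ± 13.8 and Cox4i1, a regulatory subunit of complex IV, at 535 ± 15.5. The last 2 did not differ beyond their spread. In MC38 cells Atp5b, the catalytic beta subunit, led with 534 CPM per kb in KO and 513 in WT cells with DMSO, and Cox4i1 followed with 469 and 318. The median gene of complex II in T cells with DMSO was at 42.4 CPM per kb, below the medians of complex I at 104, complex IV at 152, complex V at 200 and complex III at 210. In the KO and WT lines the complex II medians were 90.5 and 92.1, above those of complex I at 63.5 and 57.2. The length used was the median over annotated coding transcripts, from 321.5 bases for Atp5k to 3123 for Cycs. It was 533 bases for Uqcrc1, 651 for Ndufs1 and 2675.5 for Atp5g1. Uqcrc1 itself gave the complex III median of 210 in T cells. Other lengths could change the order of genes and complexes, and none were tried. T cells and MC38 cells were normalized in separate tables and these levels were not tested between them.

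MRTX1719 in T cells was followed by higher RNA of most of the machinery. Of 82 genes, 65 rose and 1 fell, where 18.9% of the 13753 genes tested were higher and 18.5% lower (edgeR quasi-likelihood test, adjusted p below 0.05). The median log2 fold change of the 82 was 0.25, against 0.00 for all genes, and 75 were above 0. All 4 genes of complex II rose, as did 25 of 36 of complex I, 8 of 9 of complex III, 11 of 15 of complex IV, 16 of 17 of complex V and Cycs. Median changes by complex were 0.40 in complex II, 0.33 in complex V, 0.32 in complex IV, 0.19 in complex III and 0.18 in complex I. Within complex I, 22 of 29 accessory subunits rose but 3 of the 7 core subunits that carry the redox chemistry, and the difference between those shares was not tested. Scaling by library totals alone gave 54 higher and 4 lower, and without MRTX1719 replicate 3 the lower genes were 2.

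With GSK3326595 in T cells more of the set rose than fell. Here 47 of 82 rose (57.3%) and 13 fell (15.9%), beside 26.6% and 26.2% of all genes, with a median of 0.15. The higher share was above that of all genes and the lower share below it. Complexes II, IV and V had 3 of 4, 11 of 15 and 12 of 17 higher and 0, 1 and 2 lower, with medians of 0.58, 0.19 and 0.22. In complex I 16 rose and 7 fell among 36 (median 0.07), and in complex III 4 rose and 3 fell among 9 (median 0.06). Both inhibitors were set against the same DMSO libraries, so their changes are not independent. A list for handling and RNA quality, called handling genes here, held early-response and heat-shock genes together with Malat1 and Neat1. Of the 10 tested in T cells, 7 fell and 0 rose with GSK3326595 (median -0.85). With MRTX1719 7 fell and 2 rose (median -0.26). Of the T cell markers 8 of 10 rose with GSK3326595 and 7 with MRTX1719. The part of either in the respiratory changes was not tested.

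**Figure D2:**
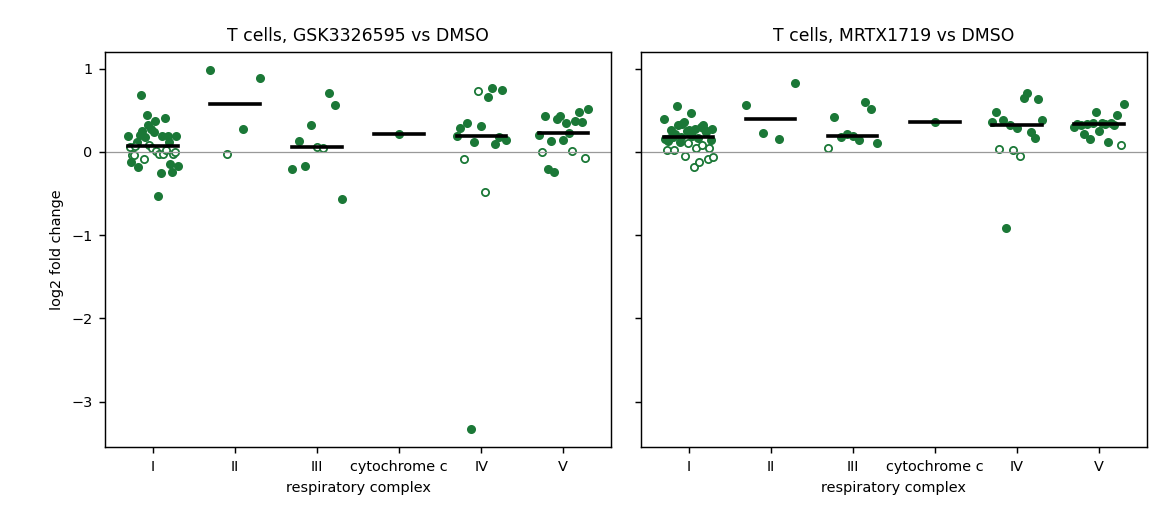
Log2 fold changes of the 82 genes by complex in T cells, one panel for each inhibitor against DMSO; filled points passed the test, open points did not, and bars are medians. With MRTX1719 the medians run from 0.18 in complex I to 0.40 in complex II, and Cox6a2 is the only filled point below 0.

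The subunits of succinate dehydrogenase moved by different amounts. Sdhd, a membrane anchor, stood at 51.5, 52.7 and 53.9 CPM with GSK3326595 and 49.2, 48.8 and 53.5 CPM with MRTX1719, against 28.1, 30.7 and 27.3 CPM with DMSO. The treated libraries all lay above the DMSO ones, and the rise was 0.88 ± 0.0613 on the log2 scale (SE, adjusted p = 2.95e-23, edgeR) with GSK3326595 and 0.82 ± 0.0621 (adjusted p = 1.48e-20, edgeR) with MRTX1719. Sdha, the flavoprotein that oxidises succinate, stood at 107, 104 and 106 CPM with GSK3326595 and 78.6, 84.6 and 73.9 CPM with MRTX1719, against 53.2, 55.7 and 51.2 CPM with DMSO. Its 3 groups did not overlap, and its rise was 0.98 ± 0.0489 (adjusted p = 1.22e-32, edgeR) with GSK3326595 and 0.57 ± 0.0506 (adjusted p = 8.46e-17, edgeR) with MRTX1719. Sdhb, the iron-sulfur subunit, was at 199, 194 and 189 CPM with GSK3326595 and 224, 238 and 229 CPM with MRTX1719, against 199, 192 and 200.2 CPM with DMSO. Only with MRTX1719 did it pass the test, with a log2 change of 0.23, against -0.02 ± 0.0378 with GSK3326595 (adjusted p = 0.657, edgeR), and MRTX1719 exceeded GSK3326595 by 0.25 ± 0.0374 (adjusted p = 3.41e-08, edgeR). Sdhc, the other anchor, rose by 0.27 with GSK3326595 and 0.16 with MRTX1719.

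Cytochrome c oxidase genes gave some of the largest increases. Cox7a2l, which is known to tie complexes III and IV into supercomplexes, stood at 347, 348 and 345 CPM with GSK3326595 and 324, 338 and 332 CPM with MRTX1719, against 208, 206 and 197 CPM with DMSO. All treated libraries were above all DMSO libraries, with log2 changes of 0.77 ± 0.0361 (adjusted p = 3.05e-34, edgeR) for GSK3326595 and 0.70 ± 0.0363 (adjusted p = 1.45e-30, edgeR) for MRTX1719. Cox7a2, the form of subunit VIIa found in most tissues, had 116, 114 and 119 CPM with GSK3326595 and 114, 116 and 116 CPM with MRTX1719, against 73.4, 76.2 and 71.4 CPM with DMSO. It rose by 0.65 ± 0.0444 with MRTX1719 (adjusted p = 8.25e-23, edgeR) and by 0.66 with GSK3326595. Cox8a, the widely used form of subunit VIII, had 131, 121 and 119 CPM with GSK3326595 and 116, 113 and 115 CPM with MRTX1719, against 70.3, 72.8 and 79.0 CPM with DMSO. Its groups with and without inhibitor did not overlap, and it rose by 0.74 ± 0.0456 with GSK3326595 (adjusted p = 1.71e-26, edgeR) and by 0.63 with MRTX1719. Cox5a rose by 0.28 and 0.48 and Cox4i1 by 0.19 and 0.35 with GSK3326595 and MRTX1719, whereas Cox5b at -0.09 and 0.04 passed in neither.

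The isoforms of subunit VIa moved apart. Cox6a2, the form typical of heart and skeletal muscle, stood at 0.614, 0.775 and 1.05 CPM with GSK3326595 and 4.13, 5.01 and 4.05 CPM with MRTX1719, against 7.97, 9.37 and 7.64 CPM with DMSO. The 3 groups did not overlap, and it fell by 3.33 ± 0.211 on the log2 scale with GSK3326595 (adjusted p = 1.09e-25, edgeR) and by 0.91 ± 0.159 with MRTX1719 (adjusted p = 1.25e-06, edgeR). Cox6a1, the form of most other tissues, had 143, 145 and 136 CPM with GSK3326595 and 143, 144 and 148 CPM with MRTX1719, against 109.7, 107 and 117 CPM with DMSO, and rose by 0.34 and 0.38. Exons of Cox6a2 overlap those of Itgad on the opposite strand, and Itgad itself stayed at or below 0.409 CPM in T cells. The muscle form Cox7a1 and the testis form Cox6b2 stayed at or below 1.84 CPM and passed in neither comparison. Cox8b, the muscle form of subunit VIII, had 0 counts in all groups. Cox4i2, a lung and hypoxia form, and Ndufa4l2 averaged at most 0.122 and 0.108 CPM in the T cell groups. Atpif1, the inhibitor of ATP synthase, falls outside the naming rule and averaged 102 ± 3.90 CPM with GSK3326595, 121 ± 8.51 with MRTX1719 and 114 ± 12.2 with DMSO (SD, n = 3 each).

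In complex III the accessory genes Uqcrq and Uqcr11 passed in opposite directions with the 2 inhibitors. Uqcrq, a small structural subunit, stood at 175, 188 and 172 CPM with GSK3326595 and 274, 290.0 and 286 CPM with MRTX1719, against 255, 251 and 284 CPM with DMSO. The GSK3326595 libraries lay below all others, while those with MRTX1719 and DMSO overlapped. The gene fell by 0.56 ± 0.0401 with GSK3326595 (adjusted p = 1.28e-20, edgeR) and rose by 0.11 ± 0.0393 with MRTX1719 (adjusted p = 0.0274, edgeR). Uqcrfs1, the Rieske iron-sulfur protein, had 146, 134 and 142 CPM with GSK3326595 and 126, 136 and 128 CPM with MRTX1719, against 86.7, 89.6 and 81.9 CPM with DMSO, and rose by 0.71 and 0.60. Cyc1, cytochrome c1, fell by 0.21 with GSK3326595 and was at 0.04 with MRTX1719, which did not pass. Cycs, its soluble partner, had 123, 123 and 128 CPM with GSK3326595 and 135, 139 and 139 CPM with MRTX1719, against 109, 102 and 111 CPM with DMSO, and rose by 0.21 and 0.36. The hinge protein gene Uqcrh rose by 0.57 and 0.51. Uqcr11 fell by 0.17 ± 0.0505 with GSK3326595 (adjusted p = 0.00355, edgeR) and rose by 0.18 ± 0.0497 with MRTX1719 (adjusted p = 0.00284, edgeR).

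**Figure D3:**
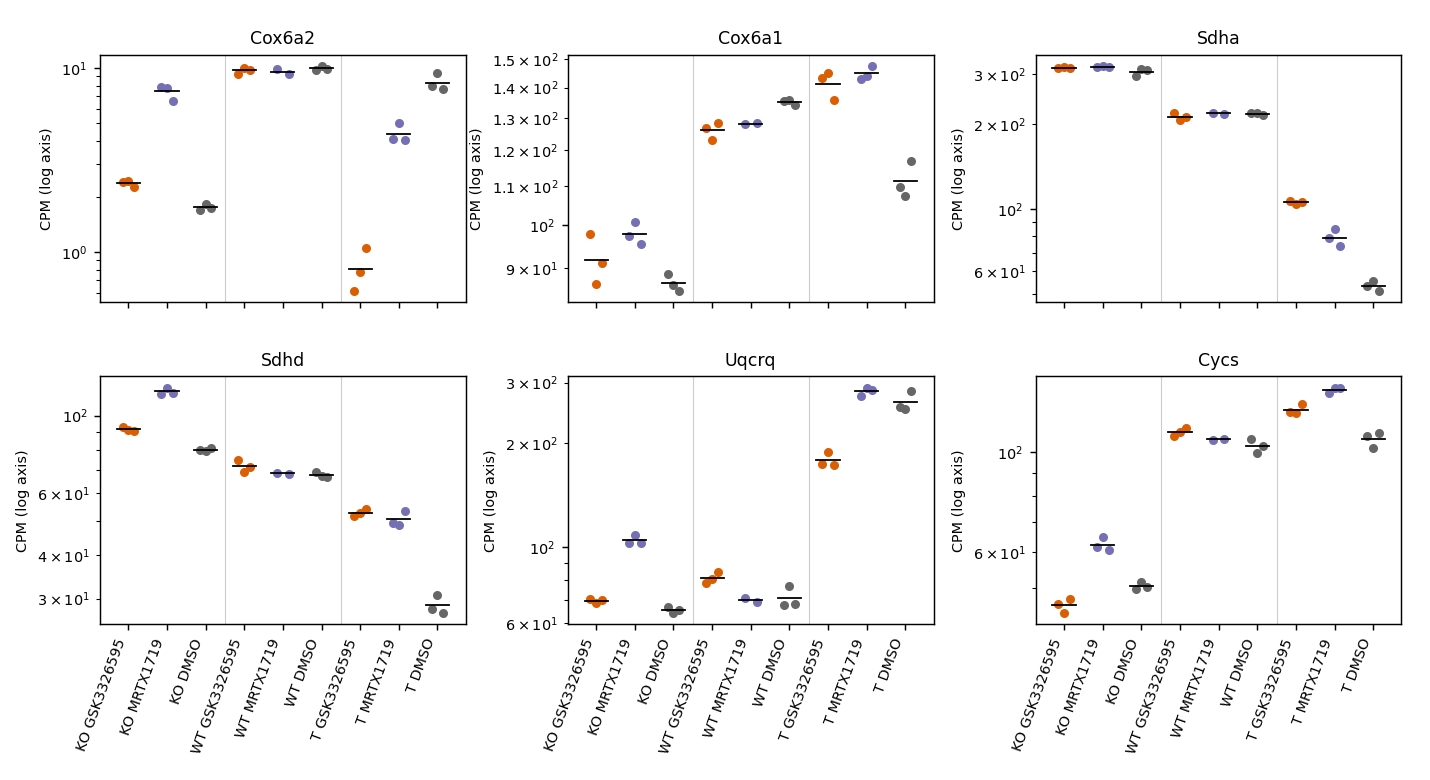
CPM on a log axis of 6 genes in every library of the 9 groups. Cox6a2 is lowest in T cells with GSK3326595 (0.614 to 1.05 CPM) and, among MC38 cells, in KO cells with DMSO (1.69 to 1.82 CPM).

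In complex V all 5 genes of the F1 head and central stalk, all 3 of the c ring and all 5 membrane accessory genes rose with MRTX1719 in T cells, and 3 of 4 of the peripheral stalk. Atp5pb, the b subunit of that stalk, gave the largest change of the complex at 0.57 with MRTX1719 and 0.52 with GSK3326595. Exons of Atp5pb overlap those of Wdr77 and Gm42890 on the opposite strand, and the strand setting of the counts is not known. The 3 genes Atp5g1, Atp5g2 and Atp5g3 encode the same mature c subunit. With MRTX1719 they rose by 0.16, 0.34 and 0.48, while with GSK3326595 Atp5g1 fell by 0.24 and Atp5g2 and Atp5g3 rose by 0.40 and 0.43. Atp5g1 counts were 92.4, 93.6 and 94.2 CPM with GSK3326595 and 123, 122 and 124 CPM with MRTX1719, against 111, 117 and 104 CPM with DMSO, and the 3 groups did not overlap. In complex I, Ndufa7, an accessory subunit, rose most, by 0.69 with GSK3326595 and 0.55 with MRTX1719. Ndufb8, another accessory subunit, had 6.08, 5.94 and 6.14 CPM with GSK3326595, against 10.1, 8.73 and 7.46 CPM with DMSO, and fell by 0.54 ± 0.134 (adjusted p = 3.83e-04, edgeR). Its exons overlap those of a read-through gene on the same strand that had 0 counts, and how shared reads were counted is not given in the sources used here. Ndufs1 and Ndufv1, which hold iron-sulfur clusters and the NADH site, were at -0.02 and 0.00 with GSK3326595, not past the test. With MRTX1719 Ndufv1 rose by 0.14 and Ndufs1 at -0.12 did not pass.

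Many of these transcripts are short by median annotated length, and other short ones also moved with MRTX1719 in T cells. That median runs over annotated coding transcripts and puts Ndufs1 (651 bases) and Uqcrc1 (533 bases) among the short ones. Some members may therefore be placed in the wrong class. Of 44 members with transcripts under 700 bases 35 rose and 1 fell, and of the 38 longer ones 30 rose and 0 fell. Among other coding genes, 32.1% of 769 with transcripts under 700 bases were higher and 12.7% lower, against 20.0% higher and 20.9% lower of 10413 longer ones. Whether transcript length has a part in the result was not tested beyond this split.

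Set directly against GSK3326595, MRTX1719 gave more of the machinery in T cells: 41 of 82 genes were higher and 8 lower, beside 19.3% and 19.7% of all genes, with a median of 0.10 against 0.00. Higher and lower genes were 18 and 3 of 36 in complex I, 5 and 1 of 9 in complex III and 7 and 1 of 15 in complex IV. In complex V they were 9 and 2 of 17. Complex II differed, with 1 higher and 1 lower of 4 and a median of -0.09. Cox6a2 differed most, at 2.42 ± 0.232 (adjusted p = 1.76e-15, edgeR), followed by Uqcrq at 0.67 ± 0.0399 (adjusted p = 4.22e-24, edgeR) and Atp5d, the delta subunit of the central stalk, at 0.41 ± 0.0343 (adjusted p = 1.34e-18, edgeR). Atp5d stood at 584, 609 and 586 CPM with MRTX1719 and 459, 450.4 and 426 CPM with GSK3326595, with no overlap. Sdha was lower with MRTX1719, at -0.42 ± 0.0465 (adjusted p = 1.09e-12, edgeR). Sdhd did not pass, at -0.06 ± 0.0565 (adjusted p = 0.446, edgeR). Atp5md, a small membrane subunit, at -0.16 ± 0.0517 (adjusted p = 0.00945, edgeR) and Ndufa7 at -0.14 ± 0.0451 (adjusted p = 0.0108, edgeR) were also lower. Their calls were lost without MRTX1719 replicate 1 (adjusted p = 0.155 and 0.100), and that of Atp5md also without GSK3326595 replicate 3 (adjusted p = 0.0835).
Scaling by library totals gave 27 higher and 13 lower. The number of lower genes was 1 without MRTX1719 replicate 1, 3 without GSK3326595 replicate 1, and 5 without MRTX1719 replicate 3 or GSK3326595 replicate 3.

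In MC38 cells with DMSO, the KO and WT lines differed in both directions, by much for single genes and near 0 on balance. In KO cells 32 of 80 genes (40.0%) were higher and 25 (31.2%) lower than in WT cells, close to the 36.2% and 37% of all 14835 genes tested, and the median was 0.01 for both the members and all genes. By complex, 10 and 9 of 36 were higher and lower in complex I, 2 and 1 of 4 in complex II, 3 and 5 of 9 in complex III, 7 and 4 of 13 in complex IV, and 10 and 5 of 17 in complex V. Of 11 handling genes 1, Neat1 at 1.13, was higher and 8 were lower in KO cells (median -1.18), and their part was not tested.

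Uqcrfs1 and Uqcrh of complex III led the increases. Uqcrfs1 had 105, 114 and 109 CPM in KO and 47.6, 48.8 and 51.6 CPM in WT cells, a log2 difference of 1.16 ± 0.0347 (adjusted p = 1.11e-65, edgeR). Uqcrh, the hinge protein beside cytochrome c1, had 77.9, 81.9 and 80.8 CPM in KO and 44.7, 43.0 and 45.1 CPM in WT cells, a difference of 0.86 ± 0.0376 (adjusted p = 2.99e-47, edgeR). Neither overlapped between the lines. Atp5mpl, a small proteolipid of complex V, had 36.8, 37.6 and 34.6 CPM in KO and 22.9, 23.1 and 21.9 CPM in WT cells, and was higher by 0.68 ± 0.0523 (adjusted p = 5.57e-25, edgeR).

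Cytochrome c and several complex IV genes were lower. Cycs had 49.6, 51.4 and 50.2 CPM in KO and 107, 99.9 and 103 CPM in WT cells, and its level in every KO library was below that in every WT library, a log2 difference of -1.04 ± 0.0353 (adjusted p = 2.88e-59, edgeR). Cox6a2 had 1.69, 1.82 and 1.74 CPM in KO and 9.75, 10.3 and 9.91 CPM in WT cells, a difference of -2.50 ± 0.127 (adjusted p = 9.92e-41, edgeR). In this line Cox6a1 was also lower, at -0.64. Cox5a, a structural subunit of complex IV, had 59.8, 61.4 and 56.6 CPM in KO and 97.1, 98.1 and 93.3 CPM in WT cells, at -0.70 ± 0.0349 (adjusted p = 2.28e-41, edgeR), whereas Cox4i1 and Cox6c were higher by 0.56 and 0.60. In complex II, Sdha and Sdhd were higher by 0.49 and 0.24, Sdhb was lower at -0.55, and Sdhc at 0.00 did not pass. The complex I accessory genes Ndufa11 and Ndufs5 were lower at -0.68 and -0.60, and the complex V accessory genes Atp5j2 and Atp5k at -0.59 and -0.54. Of the c ring genes, Atp5g2 and Atp5g3 were higher by 0.30 and 0.28 and Atp5g1 at 0.01 did not pass.

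With MRTX1719 in KO cells 37 of 80 genes rose (46.2%) and 19 fell (23.8%), beside 37% and 33.6% of all genes, with a median of 0.07 against 0.02. Scaling by library totals gave 30 higher and 24 lower. Of 11 handling genes 4 rose and 7 fell (median -0.32), and their part was not tested. By complex the higher and lower genes were 3 and 0 of 4 in complex II, 6 and 2 of 9 in complex III, 8 and 3 of 13 in complex IV, 8 and 2 of 17 in complex V, and 11 and 12 of 36 in complex I.

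Cox6a2 changed most. It had 7.91, 7.80 and 6.65 CPM in KO cells with MRTX1719 and 1.69, 1.82 and 1.74 CPM in KO cells with DMSO, a rise of 2.09 ± 0.136 (adjusted p = 1.38e-30, edgeR). Its level with MRTX1719 stayed below that of WT cells with DMSO, which had 9.75, 10.3 and 9.91 CPM. Uqcrq had 103, 108 and 103 CPM with MRTX1719 and 66.9, 64.4 and 65.6 CPM with DMSO, a rise of 0.68 ± 0.0354 (adjusted p = 3.57e-37, edgeR). Sdhd had 115, 120.1 and 116 CPM with MRTX1719 and 79.9, 79.1 and 80.5 CPM with DMSO, a rise of 0.56 ± 0.0319 (adjusted p = 2.28e-35, edgeR). None of the 3 overlapped between treatments. Ndufs1, the largest core subunit of complex I, had 95.9, 94.1 and 97.4 CPM with MRTX1719 and 66.7, 67.6 and 70.4 CPM with DMSO and rose by 0.49. Cycs, lower in the KO line with DMSO, had 61.6, 64.9 and 60.6 CPM with MRTX1719 and 49.6, 51.4 and 50.2 CPM with DMSO and rose by 0.31, staying below the WT level.

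Of the 29 accessory subunits of complex I, 9 rose (31.0%) and 11 fell (37.9%) in KO cells with MRTX1719, beside 37% and 33.6% of all genes. Ndufb10 had 47.5, 47.4 and 46.5 CPM with MRTX1719 and 57.4, 66.5 and 58.9 CPM with DMSO, and fell by 0.37 ± 0.0412 (adjusted p = 5.07e-15, edgeR). Ndufv3, Ndufs4 and Ndufa6 fell by 0.34, 0.29 and 0.28. Ndufb8 with 2.102, 2.69 and 2.56 CPM against 4.57, 4.25 and 3.40 CPM with DMSO, and Ndufb2 with 1.28, 1.69 and 1.78 CPM against 2.36, 2.22 and 2.19 CPM, fell by 0.71 ± 0.156 (adjusted p = 2.11e-05, edgeR) and 0.50 ± 0.199 (adjusted p = 0.0191, edgeR). Both are low-count genes whose exons overlap a read-through gene on the same strand, and the call of Ndufb2 was lost without KO MRTX1719 replicate 1 (adjusted p = 0.116). In complex V the c ring genes Atp5g2 and Atp5g3 fell by 0.11 and 0.07 while Atp5g1 rose by 0.10.

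With GSK3326595 in KO cells 11 of 80 genes rose (13.8%) and 23 fell (28.8%), beside 27.7% and 25.1% of all genes, with a median of -0.03. The lower share was near the background and the higher share below it. Of 11 handling genes 1 rose and 5 fell (median -0.05), and their part was not tested. Complex I held 14 of the lower genes and 4 of the higher ones among 36, and complex V held 3 and 1 of 17. Ndufs4, an accessory subunit needed for complex I stability in mouse and human, had 45.2, 43.7 and 43.5 CPM with GSK3326595 and 54.1, 55.2 and 59.5 CPM with DMSO, and fell by 0.35 ± 0.0417 (adjusted p = 3.10e-13, edgeR) without overlap. Ndufs1 had 75.8, 76.8 and 82.1 CPM with GSK3326595 and rose by 0.20 ± 0.0351 (adjusted p = 5.70e-07, edgeR), and Sdhd had 92.9, 91.1 and 90.4 CPM and rose by 0.20 ± 0.0326 (adjusted p = 8.61e-08, edgeR). Ndufb8 fell by 0.56 ± 0.150 (adjusted p = 6.96e-04, edgeR). Cox6a2 had 2.40, 2.42 and 2.25 CPM and rose by 0.42 ± 0.173 (adjusted p = 0.0312, edgeR), and Ndufb2 fell by 0.49 ± 0.195 (adjusted p = 0.0270, edgeR). These last calls were unstable: that of Cox6a2 was lost on leaving out KO DMSO replicate 1, 2 or 3 or KO GSK3326595 replicate 1 or 2, with adjusted p up to 0.0790, and that of Ndufb2 on leaving out KO DMSO replicate 1 or 2 or KO GSK3326595 replicate 1 or 2, with adjusted p up to 0.0985.
Without the filter on low counts the calls of Cox6a2 and Ndufb2 were also lost (adjusted p = 0.0954 and 0.0560, edgeR), and that of Ndufb2 with DESeq2 (adjusted p = 0.0674). Scaling by library totals gave 6 higher and 29 lower, and without KO DMSO replicate 3 the higher genes were 5.

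GSK3326595 in WT cells had the opposite balance, with 32 of 80 genes higher and 10 lower, beside 20.1% and 21.1% of all genes and a median of 0.04. Of 11 handling genes 1 rose and 8 fell (median -0.40), and their part was not tested. Higher and lower genes were 11 and 3 of 36 in complex I, 1 and 1 of 4 in complex II and 5 and 0 of 9 in complex III. In complexes IV and V they were 6 and 3 of 13 and 8 and 3 of 17. The higher genes included 4 of 7 core subunits of complex I, with 0 lower, and 4 of 5 of the F1 head and central stalk. Uqcrfs1 had 70.3, 70.7 and 71.8 CPM with GSK3326595 and 47.6, 48.8 and 51.6 CPM with DMSO, a rise of 0.53 ± 0.0362 (adjusted p = 2.08e-27, edgeR) without overlap. Atp5c1, the gamma subunit that turns inside the F1 head, rose by 0.31 ± 0.0272 (adjusted p = 1.98e-19, edgeR), and Ndufv2, a core iron-sulfur subunit, by 0.29 ± 0.0321 (adjusted p = 4.11e-14, edgeR). Cox6b1, a complex IV subunit facing the intermembrane space, had 84.8, 85.8 and 86.1 CPM with GSK3326595 and 108, 106 and 107 CPM with DMSO, and fell by 0.32 ± 0.0310 (adjusted p = 2.22e-17, edgeR). Atp5k and Ndufb3, accessory subunits of complexes V and I, fell by 0.25 ± 0.0488 (adjusted p = 6.85e-06, edgeR) and 0.25 ± 0.0474 (adjusted p = 4.25e-06, edgeR). Sdhc fell by 0.25, and Cox6a2 at -0.04 did not pass.

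With MRTX1719 in WT cells 2 of 80 genes rose (2.5%) and 13 fell (16.2%), beside 3.62% and 3.91% of all genes, with a median of -0.03 against 0.00. The lower share was above the background. Of 11 handling genes 0 rose and 8 fell (median -0.19), and their part was not tested. Cox6b1 had 91.9 and 94.0 CPM with MRTX1719 and 108, 106 and 107 CPM with DMSO, and fell by 0.20 ± 0.0344 (adjusted p = 4.62e-06, edgeR). Uqcrh had 37.9 and 38.1 CPM with MRTX1719 and 44.7, 43.0 and 45.1 CPM with DMSO, and fell by 0.22 ± 0.0464 (adjusted p = 3.92e-04, edgeR). Neither overlapped between treatments. Cox7b, a small complex IV subunit, fell by 0.20, and Uqcr11, a small complex III subunit, by 0.21 ± 0.0607 (adjusted p = 0.0145, edgeR). Uqcrfs1 at 0.13 ± 0.0420 (adjusted p = 0.0335, edgeR) and Atp5b at 0.06 ± 0.0202 (adjusted p = 0.0308, edgeR) were the 2 that rose. By median annotated length, with the same limit as in T cells, 10 of 42 members under 700 bases and 3 of 38 longer ones fell. Of 800 other coding genes under that length, 6.88% fell.
With 2 libraries in this group the counts were not stable. Lower genes numbered 6 without MRTX1719 replicate 1, 7 without MRTX1719 replicate 3, 7 without DMSO replicate 1 and 8 without DMSO replicate 2. Higher genes numbered 0 or 1 without any of the 5 libraries of the comparison, the call of Uqcr11 was lost without MRTX1719 replicate 1 or 3 or DMSO replicate 1 (adjusted p up to 0.176), that of Uqcrfs1 without any of the same 3 or DMSO replicate 2 (up to 0.333), and that of Atp5b without MRTX1719 replicate 1 or 3 or DMSO replicate 2 or 3 (up to 0.219).

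**Figure D4:**
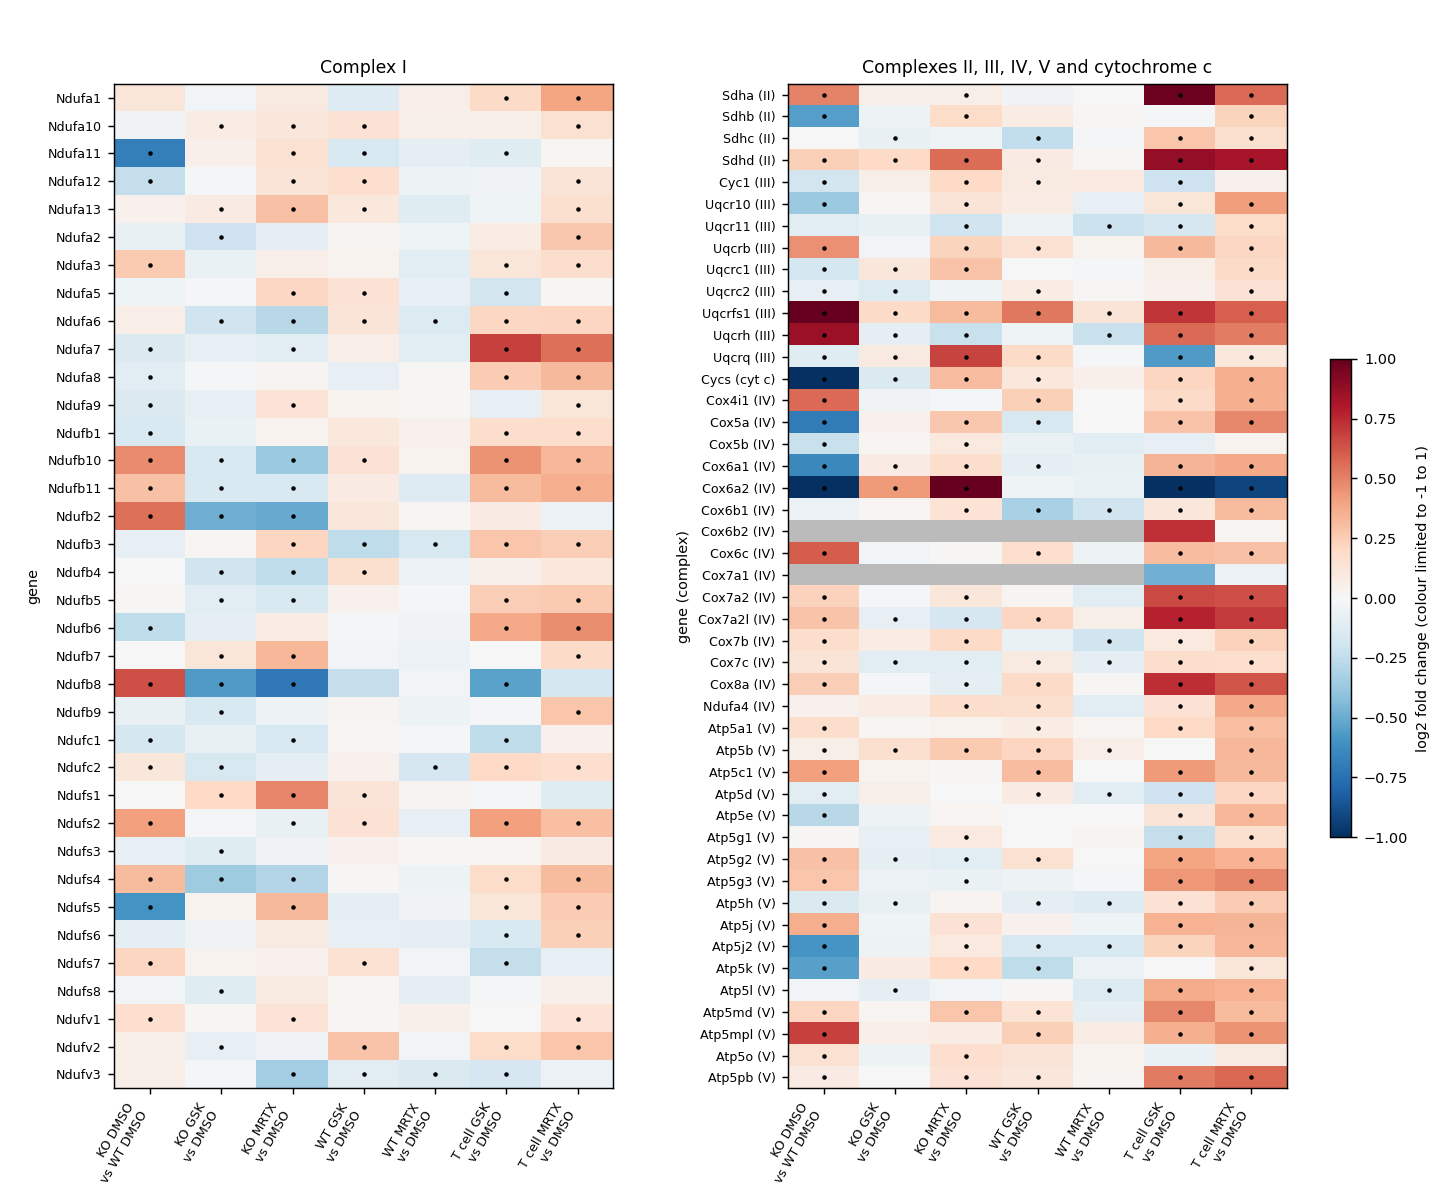
Log2 fold changes of all members, complex I on the left and the others on the right, in 7 comparisons; colour is limited to -1 to 1, a dot marks an adjusted p below 0.05, and grey marks Cox6b2 and Cox7a1, not tested in MC38 cells. The column of T cells with MRTX1719 is the fullest, with 65 genes higher, and that of WT cells with MRTX1719 the emptiest, with 2 higher and 13 lower.

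Whether the response differed between the lines was tested as the inhibitor's effect in KO minus its effect in WT cells. For MRTX1719, 34 of 80 genes had a more positive effect in KO cells and 8 a more negative one, beside 30.3% and 27.9% of all genes, with a median of 0.09. The more positive and more negative genes were 2 and 0 of 4 in complex II, 5 and 0 of 9 in complex III, 8 and 1 of 13 in complex IV and 8 and 0 of 17 in complex V, against 10 and 7 of 36 in complex I. Cox6a2 led with 2.16 ± 0.168 (adjusted p = 6.94e-24, edgeR), from log2 changes of 2.09 in KO and -0.07 in WT cells. Uqcrq followed with 0.70 ± 0.0535 (adjusted p = 1.29e-23, edgeR), from 0.68 in KO and -0.02 in WT cells, and Sdhd with 0.54 ± 0.0497 (adjusted p = 3.89e-19, edgeR), from 0.56 in KO and 0.01 in WT cells. More negative in KO cells were Ndufb8 at -0.68 ± 0.241 (adjusted p = 0.0103, edgeR), Ndufb10 at -0.41 ± 0.0628 (adjusted p = 6.65e-09, edgeR) and Ndufs4 at -0.24 ± 0.0634 (adjusted p = 5.23e-04, edgeR). Without WT MRTX1719 replicate 1 the call of Ndufb8 was lost (adjusted p = 0.0561) and the more negative genes numbered 5.

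**Figure D5:**
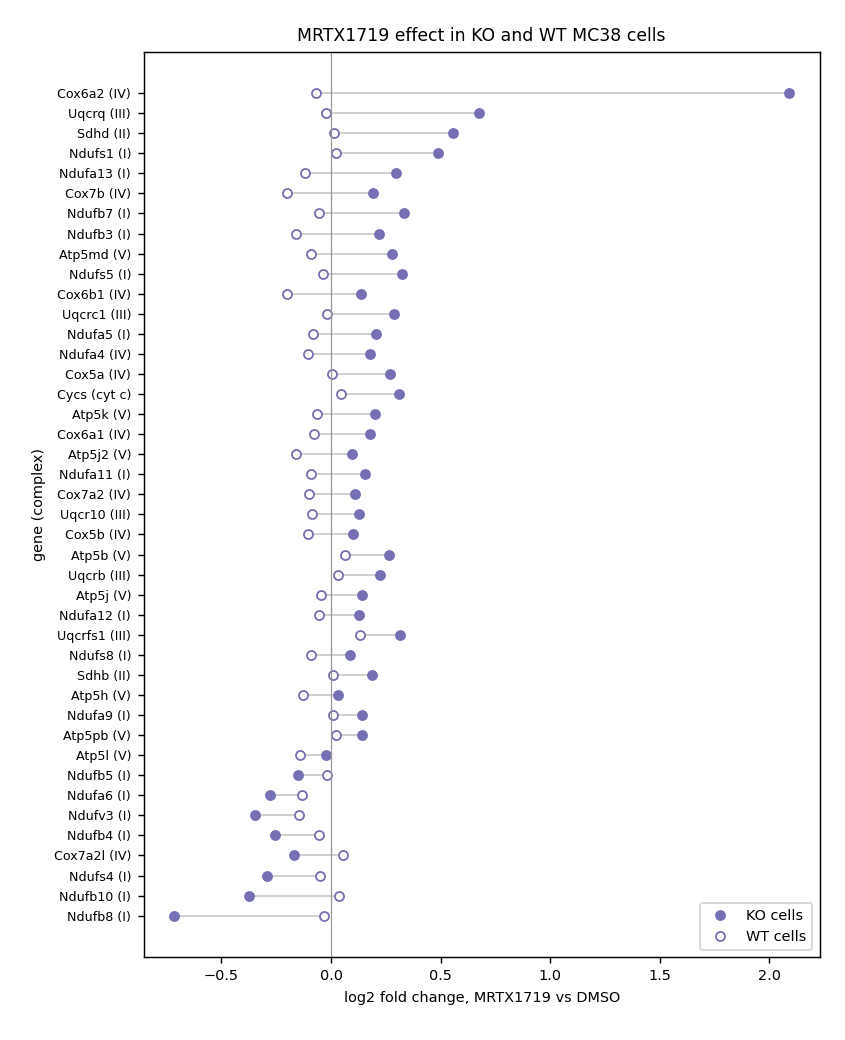
Log2 fold changes with MRTX1719 against DMSO in KO cells (filled) and WT cells (open) for the 42 genes whose difference between the lines passed the test. Cox6a2 has the longest line, a difference of 2.16, and most WT points lie near 0.

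For GSK3326595 the difference ran the other way. In KO cells 13 of 80 genes had a more positive effect and 29 a more negative one, beside 22% and 20.2% of all genes, with a median of -0.10. Complex I had 2 more positive and 14 more negative among 36 (median -0.15), complex V 2 and 5 of 17, complex III 1 and 3 of 9, complex IV 5 and 5 of 13 and complex II 3 and 1 of 4. Ndufv2 differed by -0.37 ± 0.0463 (adjusted p = 1.06e-11, edgeR), from -0.08 in KO and 0.29 in WT cells. Ndufs4 differed by -0.37 ± 0.0593 (adjusted p = 7.00e-08, edgeR) and Ndufb4, an accessory subunit, by -0.36 ± 0.0722 (adjusted p = 1.16e-05, edgeR). Cox6b1 at 0.34 ± 0.0438 (adjusted p = 3.46e-11, edgeR), Atp5k at 0.33 ± 0.0732 (adjusted p = 7.69e-05, edgeR) and Cox6a2 at 0.47 ± 0.193 (adjusted p = 0.0410, edgeR) were the most positive. The call of Cox6a2 was lost on leaving out WT DMSO replicate 2, WT GSK3326595 replicate 1, KO DMSO replicate 1, 2 or 3, or KO GSK3326595 replicate 1 or 2 (adjusted p up to 0.0892). It was also lost with DESeq2 (adjusted p = 0.0713) and, in edgeR, with library totals (0.0527) or no filter on low counts (0.113).
Scaling by library totals gave 6 more positive and 36 more negative genes. The more positive ones numbered 8 without WT DMSO replicate 2, WT GSK3326595 replicate 2 or KO GSK3326595 replicate 1, and 7 without KO DMSO replicate 1.

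Between the inhibitors in KO cells, 41 of 80 genes were higher with MRTX1719 than with GSK3326595 and 5 lower, beside 28.3% and 24.9% of all genes, with a median of 0.10. Every complex had more higher than lower genes: 13 and 2 of 36 in complex I, 2 and 0 of 4 in complex II, 7 and 1 of 9 in complex III, 8 and 2 of 13 in complex IV and 10 and 0 of 17 in complex V. Cox6a2 differed by 1.67 ± 0.123 (adjusted p = 2.74e-25, edgeR) and Uqcrq by 0.59 ± 0.0345 (adjusted p = 4.31e-32, edgeR). Cycs had 61.6, 64.9 and 60.6 CPM with MRTX1719 and 46.1, 44.0 and 47.2 CPM with GSK3326595, a difference of 0.45 ± 0.0382 (adjusted p = 3.19e-21, edgeR), with the DMSO libraries between them. Lower with MRTX1719 were Ndufv3 at -0.32 ± 0.0421 (adjusted p = 2.12e-11, edgeR), Ndufb10 at -0.22 ± 0.0413 (adjusted p = 1.29e-06, edgeR) and Uqcrh at -0.13 ± 0.0351 (adjusted p = 5.75e-04, edgeR). Lower genes numbered 8 without KO MRTX1719 replicate 2.

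Between the inhibitors in WT cells the balance was reversed: 5 of 80 genes were higher with MRTX1719 than with GSK3326595 and 36 lower, beside 15.4% and 14.6% of all genes, with a median of -0.08. Lower genes were 13 of 36 in complex I, 6 of 9 in complex III, 8 of 13 in complex IV and 9 of 17 in complex V, and 0 of 4 in complex II. Uqcrfs1 had 53.1 and 54.9 CPM with MRTX1719 and 70.3, 70.7 and 71.8 CPM with GSK3326595, a difference of -0.39 ± 0.0395 (adjusted p = 4.88e-16, edgeR). Ndufv2 differed by -0.32 ± 0.0357 (adjusted p = 1.13e-13, edgeR) and Atp5c1 by -0.30 ± 0.0303 (adjusted p = 2.73e-16, edgeR). Higher with MRTX1719 were Sdhc at 0.24 ± 0.0356 (adjusted p = 1.30e-08, edgeR), Ndufa1 at 0.20 ± 0.0727 (adjusted p = 0.0268, edgeR) and Atp5k at 0.19 ± 0.0540 (adjusted p = 0.00376, edgeR). Without WT MRTX1719 replicate 3 the higher genes numbered 1, and Atp5k (adjusted p = 0.257) and Ndufa1 lost their calls, Ndufa1 also without WT MRTX1719 replicate 1 or WT GSK3326595 replicate 2 or 3 (up to 0.156).

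Some members passed the test in opposite directions in T cells and in MC38 cells, with groups that did not overlap in either. With GSK3326595 there were 12 such genes of 80 in KO cells (15%) and 11 in WT cells (13.8%), beside 14% and 8.88% of all 11819 genes tested in both cell types. With MRTX1719 there were 12 in KO cells (15%) and 11 in WT cells (13.8%), beside 13.5% and 2.21% of all genes. The shares in KO cells were thus near the background. The WT count with MRTX1719 rests on a group of 2 libraries. Lower members in that group against DMSO ran from 6 to 13 with single libraries left out. With MRTX1719, Cox6a2 stood at -0.91 in T cells and 2.09 in KO cells. Cox7a2l stood at 0.70 in T cells and -0.17 in KO cells, Uqcrh at 0.51 and -0.22, and Ndufb10 at 0.34 and -0.37. With GSK3326595 Uqcrq stood at -0.56 in T cells, 0.09 in KO cells and 0.19 in WT cells. The differences between T cells and MC38 cells were not tested, since time of treatment and cell type go together in this design.

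Genes around the respiratory chain were counted from lists of the same kind. Of 77 genes of the mitochondrial ribosome, which translates the subunits coded in mitochondria, 46 rose and 0 fell with MRTX1719 in T cells (median 0.20), and 38 rose and 9 fell with GSK3326595 (median 0.11). Mrpl34 and Mrps14 rose by 0.68 and 0.64 with MRTX1719, and Mrpl17 fell by 0.59 with GSK3326595. For comparison, 18.9% of all genes rose and 18.5% fell with MRTX1719 in T cells, and 26.6% and 26.2% with GSK3326595. In KO cells 42 of the 77 rose and 15 fell with MRTX1719 (median 0.13), with Mrpl17 at -1.07, and 12 rose and 22 fell with GSK3326595 (median -0.03), with Mrpl17 at -0.73. In WT cells 31 rose (40.3%) and 7 fell (9.09%) with GSK3326595 (median 0.08), beside 20.1% and 21.1% of all genes. With MRTX1719 in WT cells 0 rose and 1 fell (1.30%), beside 3.62% and 3.91%. In KO against WT cells with DMSO 18 were higher (23.4%) and 30 lower (39.0%), beside 36.2% and 37% of all genes. The ribosome's shares in KO cells were 54.5% higher and 19.5% lower with MRTX1719, beside 37% and 33.6% of all genes, and 15.6% and 28.6% with GSK3326595, beside 27.7% and 25.1%.

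Assembly factors, which build the complexes without being part of them, were tested for 52 of 54 listed genes. In KO cells 15 rose and 16 fell with MRTX1719, and 3 rose and 18 fell with GSK3326595 (medians 0.03 and -0.08). These are 28.8% and 30.8% with MRTX1719, beside 37% and 33.6% of all genes, with the lower share near the background. With GSK3326595 in KO cells they are 5.77% and 34.6%, beside 27.7% and 25.1%. Lyrm7 and Bcs1l, which act in the insertion of the Rieske protein into complex III, fell by 1.47 and 0.85 with MRTX1719 and by 0.86 and 0.56 with GSK3326595. Ndufaf3, for complex I, stood at -1.05 and -0.65, Coa6, for complex IV, at -0.90 and -0.82, and Sdhaf1, for complex II, at -0.82 and -0.73. In T cells 18 rose and 3 fell with MRTX1719, and 19 rose and 7 fell with GSK3326595 (medians 0.17 and 0.13). These are 34.6% and 5.77% with MRTX1719, beside 18.9% and 18.5% of all genes. With GSK3326595 they are 36.5% and 13.5%, beside 26.6% and 26.2%. Sco1, which delivers copper to complex IV, fell by 0.51 with MRTX1719 and 1.03 with GSK3326595, and Higd2a rose by 0.87 with GSK3326595. In WT cells 0 rose and 1 fell (1.92%) with MRTX1719, beside 3.62% and 3.91% of all genes. With GSK3326595 in WT cells 12 rose (23.1%) and 6 fell (11.5%), beside 20.1% and 21.1%, so the higher share was near the background. With DMSO 11 were higher (21.2%) and 24 lower (46.2%) in KO than in WT cells, beside 36.2% and 37% of all genes, with Uqcc3 at 1.65 and Cox18 at -1.39.

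Among 19 genes of the TCA cycle and pyruvate dehydrogenase, which feed NADH and succinate to the chain, 8 rose and 1 fell with MRTX1719 in T cells (median 0.09), with Idh2 at 0.63 and Dlat at 0.64, and 7 rose and 7 fell with GSK3326595 (median 0.00). These are 42.1% and 5.26% with MRTX1719, beside 18.9% and 18.5% of all genes. With GSK3326595 they are 36.8% and 36.8%, beside 26.6% and 26.2%. In KO cells 13 rose and 5 fell with MRTX1719 (median 0.13), with Ogdh at 0.68 and Idh3g at -0.83. With GSK3326595 in KO cells 8 rose and 4 fell (median 0.04). The TCA shares in KO cells were 68.4% and 26.3% with MRTX1719, beside 37% and 33.6% of all genes. With GSK3326595 they were 42.1% and 21.1%, beside 27.7% and 25.1%. Of glycolysis genes, 19 identifiers in all, 9 rose and 1 fell with MRTX1719 (median 0.12) and 6 rose and 11 fell with GSK3326595 (median -0.17) in T cells. In KO cells 5 rose and 13 fell with MRTX1719 (median -0.17), and 12 rose and 5 fell with GSK3326595 (median 0.12), with Hk2, Pfkp and Slc2a1 at 0.51, 0.51 and 0.53. The glycolysis shares, to be set beside the same shares of all genes, were 47.4% higher and 5.26% lower with MRTX1719 in T cells. They were 31.6% and 57.9% with GSK3326595 in T cells. In KO cells they were 26.3% and 68.4% with MRTX1719, and 63.2% and 26.3% with GSK3326595. No difference between these lists was tested. Pgk1 stood at 0.71 in T cells and -0.75 in KO cells with MRTX1719, and Pdk1, a kinase that shuts pyruvate dehydrogenase, at -1.15 in KO cells. In KO against WT cells with DMSO 15 glycolysis genes were higher (78.9%) and 4 lower (21.1%), with a median of 0.68. Of TCA genes 6 were higher (31.6%) and 11 lower (57.9%), with a median of -0.19. Of all genes 36.2% were higher and 37% lower in that comparison. Of 20 regulators of mitochondrial genes tested, 4 rose and 6 fell with MRTX1719 and 8 rose and 6 fell with GSK3326595 in T cells, and 7 rose and 5 fell with MRTX1719 in KO cells. In T cells these are 20% and 30% with MRTX1719, beside 18.9% and 18.5% of all genes, and 40% and 30% with GSK3326595, beside 26.6% and 26.2%. The KO shares were 35% and 25% of only 20 genes, beside 37% and 33.6% of all genes, and the higher share was near the background. Lrpprc, which stabilises mitochondrial mRNA, rose by 0.65 with GSK3326595 in T cells and 0.46 with MRTX1719 in KO cells, and Tfb1m, which methylates mitochondrial ribosomal RNA, fell by 0.93 with MRTX1719 and 0.55 with GSK3326595 in KO cells.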

How the data were processed

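The authors deposited raw counts per gene, whole numbers with no normalization, and a normalized signal, separately for 17 MC38 libraries and 9 T cell libraries. In the deposited normalized signal each library's counts are divided by a single size factor, which held for all 15629 and 15300 listed genes (tolerance 1e-06), and was used here for the authors' gene symbols, matched by values and, for 13 T cell genes, by name as well. The tools named are Bowtie2 2.1.0, TopHat2 2.0.10 and DESeq 1.18.0, with the build GRCm39 (mm39), per the submitters' processing notes. How reads were counted, and with which strand setting, is not given in the sources used here. Exons of 30 of the 82 genes overlap another gene in GENCODE annotation of GRCm38, 5 on the same strand, so their reads may be shared. RNA was isolated with Trizol and made into directional poly(A) libraries, per the labels' protocols. In replicates 2 and 3 the treatment label spells GSK3326595 with a different final digit, and the titles were followed.

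Raw counts of each table were fitted in R 4.3.3 with edgeR 4.0.16 (TMM, group-wise filterByExpr, quasi-likelihood F test with robust dispersions), all groups in 1 fit without covariates, with Benjamini-Hochberg adjustment over all 14835 or 13753 genes tested and a threshold of 0.05. This test gave each adjusted p. The number after ± is a standard error for log2 changes. CPM use TMM-scaled totals, and CPM per kb the median length of GRCm38 transcripts. edgeR's common biological coefficient of variation came to 0.0198 for the MC38 table and 0.0372 for T cells. The fits were tested on simulated data. Members and gene lists were chosen with earlier results of these data known. Named for each comparison were the 3 called members with the largest positive and the 3 with the largest negative change among those with a mean of at least 1 CPM, and fixed isoform and subunit groups; list genes were named at an absolute log2 change of at least 0.5 or as a list's defining member. Alternatives were RLE scaling, library totals, DESeq2 1.42.0, no filter, a replicate block, each library left out and, chosen after seeing the data, leaving out the 5 genes with same-strand overlaps. Figures used matplotlib 3.10.9.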

Additional observations from a re-analysis of the deposited data

Results flagged for a closer look

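The effect of MRTX1719 differed between KO and WT cells by test for Cox6a2 (2.16), Uqcrq (0.70), Sdhd (0.54), Ndufb8 (-0.68), Ndufb10 (-0.41) and Ndufs4 (-0.24), as KO minus WT on the log2 scale (edgeR, adjusted p below 0.05). The effect of GSK3326595 differed in the same sense for Cox6a2 (0.47), Cox6b1 (0.34), Atp5k (0.33), Ndufv2 (-0.37), Ndufs4 (-0.37) and Ndufb4 (-0.36). Of these, the Cox6a2 call was unstable. It was lost with DESeq2 (adjusted p = 0.0713), in edgeR with library totals (0.0527) or no filter on low counts (0.113), and on leaving out several single libraries. Cox6a2 moved in opposite directions in T cells and in KO cells in every library of each group, at -3.33 in T cells and 0.42 in KO cells with GSK3326595, and at -0.91 in T cells and 2.09 in KO cells with MRTX1719. That difference between cell types was not tested, and exons of Cox6a2 overlap those of Itgad on the other strand. Opposite calls without overlap in T cells and KO cells were made for 15% of members with either inhibitor. The share over all genes was 14% with GSK3326595 and 13.5% with MRTX1719. The Cox6a2 call in KO cells with GSK3326595 was lost without the filter on low counts (adjusted p = 0.0954, edgeR) and on leaving out several single libraries.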

How the results depend on the processing

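No direction of a named gene was reversed under any alternative run: of 814 values, 765 kept their side of the threshold and 49 lost it. Of 306 counts of members, 267 stayed within 1.5 times. Scaling by library totals gave, for GSK3326595 against DMSO in KO cells, 6 higher, for its KO minus WT effect 6 more positive, for MRTX1719 against GSK3326595 in KO cells 8 lower, for MRTX1719 against DMSO in T cells 4 lower, and for MRTX1719 against GSK3326595 in T cells 27 higher and 13 lower. DESeq2 gave 7 higher and no filter 6 higher for GSK3326595 in KO cells, 6 and 6 more positive for its KO minus WT effect, 1 and 0 higher and 7 and 8 lower for MRTX1719 in WT cells, and 4 and 2 lower for MRTX1719 against GSK3326595 in T cells; no filter gave 8 lower for that pair in KO cells. Leaving out each library gave ranges of 0 to 1 higher and 6 to 13 lower for MRTX1719 in WT cells, 5 to 11 higher for GSK3326595 in KO cells, 7 to 13 more positive for its KO minus WT effect, 5 to 9 more negative for the MRTX1719 effect, 1 to 5 higher for MRTX1719 against GSK3326595 in WT cells, 4 to 8 lower for the same in KO cells, 1 to 2 lower for MRTX1719 in T cells, and 1 to 7 lower for MRTX1719 against GSK3326595 in T cells. The cause of these moves was not tested. RLE scaling and leaving out genes with same-strand overlaps moved none of these counts past 1.5 times.

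Libraries sharing a replicate number did not deviate together: the correlation of their deviations from group means ran from -0.0493 to 0.0454 in MC38 cells (40 pairs) and from -0.0396 to 0.0386 in T cells (9 pairs), so the numbers were not taken as pairing. With the replicate block the higher and lower genes were 64 and 1 for MRTX1719 and 47 and 12 for GSK3326595 in T cells, 36 and 18 for MRTX1719 and 10 and 23 for GSK3326595 in KO cells, 2 and 11 for MRTX1719 and 31 and 10 for GSK3326595 in WT cells, and 32 and 25 for KO against WT. No count moved past 1.5 times with the block.

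With 3 libraries a group, or 2, changes of low-count genes had wide errors, as for Cox6b2 and Cox7a1 in T cells (SE 0.375 and 0.415 with GSK3326595), and small ones could not be resolved at this depth. Levels were compared only within a table.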
